A study of Mus musculus with 72 samples.

Results

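A set of 37 genes of the interferon response and of MHC class I antigen processing was followed in mouse adipose tissue that lacked one or both of the lipases that start triglyceride breakdown. The members were chosen by gene symbol on the Illumina MouseRef-8 v2.0 bead array. They comprised 2 cytosolic RNA sensors or their regulators (Ifih1, Dhx58), 5 transcription factors (Irf1, Irf7, Irf8, Irf9, Stat2), 18 antiviral effectors and regulators (Isg15, Ifit1, Ifit2, Ifit3, Oasl1, Oasl2, Oas1a, Oas2, Oas3, Usp18, Rsad2, Mx1, Mx2, Ifi35, Bst2, Xaf1, Rtp4, Parp14), 5 GTPases induced by interferon gamma (Gbp2, Gbp3, Igtp, Irgm1, Iigp1) and 7 genes of class I processing (Psmb8, Psmb9, Psmb10, Tap1, Tap2, B2m, Ubd). A member was kept where a probe had a detection p under 0.05 on at least 3 of the 72 arrays, and its probe with the highest mean was used. This left 32 of the 37 members among 12265 tested genes, out of 16593 genes with a symbol on the array. The 5 others were Ifit1 and Oas1a, each detected on 1 array, Oas3 and Xaf1, each on 2, and Ifih1, on 0. Of the 32 members, 21 were detected on every array. Mx1 and Iigp1 were detected on 7 arrays each and Rtp4 on 32, so their low levels lay near background in most groups.

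The mice were on a C57BL/6J background and each array measured the RNA of 1 tissue sample. Interscapular brown adipose tissue (BAT) was taken at 3, 7 and 12 months from controls and from mice with an adipose deletion of Pnpla2 (ATGLAKO, the gene of adipose triglyceride lipase), of Lipe (HSLAKO, the gene of hormone-sensitive lipase) or of both (DAKO). Perigonadal white adipose tissue (WAT) was taken at 3 months, and DAKO BAT also at 14 months, the stage at which the study describes liposarcoma. Recombination was driven by Cre under the Fabp4 promoter, which is active in adipocytes and is known to be active in macrophages too. The study's methods give the controls as carriers of that Cre alone, whereas their labels call them wildtype. Groups held 5 arrays (control, ATGLAKO and DAKO BAT at 3 months, DAKO BAT at 14 months, ATGLAKO WAT), 3 arrays (control WAT) or 4 arrays (all others). All values below are log2 signals after background correction and quantile normalization, so a difference of 1 is a doubling. A member is said to have risen or fallen where its limma p, adjusted over all tested probes, was under 0.01.

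Interferons are cytokines that cells release when they sense viral nucleic acid or immune activation. Type I interferons act in large part through STAT2 and IRF9 at the interferon-stimulated response element (ISRE), and interferon gamma acts at the gamma-activated site (GAS) and through IRF1. Among the targets are effectors that block viral replication, and the immunoproteasome, the TAP peptide transporter and beta-2 microglobulin, through which cells present peptides on class I molecules. In adipose tissue such genes are expressed by adipocytes and by resident immune cells.

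Promoter windows of 300 bases (250 before and 50 after the RefSeq start, GRCm38.p6) were found for 28 of the 37 members, and not for Oas2, Usp18, Mx1, Mx2, Iigp1, Tap2, Rtp4, Dhx58 and Parp14. The ISRE core GAAANNGAAA, on either strand, was in 14 of these 28 and in 3.44% of all 32851 windows, or 3.99% of the 27025 genes with a window. By role, it was in 4 of 4 GTPases (Gbp2, Gbp3, Igtp, Irgm1), 7 of 12 antiviral members, 1 of 5 transcription factors (Stat2), 1 of 1 sensor (Ifih1) and 1 of 6 class I members (B2m). The palindromic GAS letters TTCNNNGAA were in 8 of the 28 (28.6%), against 9.55% of all genes. The starts of Tap1 and Psmb9, which lie head to head, were 226 bases apart, with no ISRE core in either window. The 6 members below are shown because the results turn on them, each as the 160 bases before and 50 after the start. Capitals mark ISRE cores, which overlap each other in Isg15. The windows were chr4:156200769-156200978 (minus strand) for Isg15, chr19:34583369-34583578 (plus) for Ifit3, chr3:142620503-142620712 (plus) for Gbp2, chr11:58199396-58199605 (plus) for Igtp, chr2:122147527-122147736 (plus) for B2m and chr17:37193732-37193941 (plus) for Ubd.
Isg15: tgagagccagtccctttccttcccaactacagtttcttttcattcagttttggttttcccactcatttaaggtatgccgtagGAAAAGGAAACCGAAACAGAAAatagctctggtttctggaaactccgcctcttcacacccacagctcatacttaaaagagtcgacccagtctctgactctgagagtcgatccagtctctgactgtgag
Ifit3: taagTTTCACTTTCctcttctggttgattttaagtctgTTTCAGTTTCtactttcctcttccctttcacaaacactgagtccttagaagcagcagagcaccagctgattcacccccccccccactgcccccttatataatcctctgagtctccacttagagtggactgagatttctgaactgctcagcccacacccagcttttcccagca
Gbp2: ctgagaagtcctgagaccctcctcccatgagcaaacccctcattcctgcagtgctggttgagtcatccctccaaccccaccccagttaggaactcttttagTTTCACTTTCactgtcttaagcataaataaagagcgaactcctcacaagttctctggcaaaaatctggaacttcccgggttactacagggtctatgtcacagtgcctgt
Igtp: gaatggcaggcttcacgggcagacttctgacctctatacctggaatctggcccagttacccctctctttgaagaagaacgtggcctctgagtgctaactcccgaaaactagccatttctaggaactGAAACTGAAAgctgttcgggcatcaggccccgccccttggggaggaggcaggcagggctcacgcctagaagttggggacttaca
B2m: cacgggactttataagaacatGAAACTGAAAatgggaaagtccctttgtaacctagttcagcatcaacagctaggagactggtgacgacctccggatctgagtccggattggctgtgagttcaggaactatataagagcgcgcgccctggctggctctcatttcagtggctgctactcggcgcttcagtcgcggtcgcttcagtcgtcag
Ubd: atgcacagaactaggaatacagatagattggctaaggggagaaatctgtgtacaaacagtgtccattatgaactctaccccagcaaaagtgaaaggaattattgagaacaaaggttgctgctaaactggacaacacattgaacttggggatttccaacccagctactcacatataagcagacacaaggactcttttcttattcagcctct
Isg15 held 3 cores, Ifit3 held 2, and Gbp2, Igtp and B2m held 1 each. Ubd held 0, as did Oasl2, 1 of the other members that rose with it at 3 months. These matches are letters in a window and say nothing of factor binding in this tissue.

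Several arrays departed from their labels. Ucp1, the uncoupling protein that marks brown adipocytes, was 13.61 to 13.82 in control BAT as labelled at 3 months but 4.34 to 8.25 at 7 months and 4.33 to 4.69 at 12 months, and it ranged from 4.24 to 13.60 on arrays labelled WAT. The mean of 9 mesothelial markers, which mark the lining of visceral fat, split the arrays by a gap from 5.65 to 6.21. The 16 arrays above it were all 4 control BAT arrays at 7 months, all 4 at 12 months, 2 ATGLAKO BAT arrays at 7 months and 1 at 12 months, 4 ATGLAKO WAT arrays and 1 control WAT array. At 3 months Lipe was below every control array on all HSLAKO and DAKO BAT arrays, but later ages did not follow their labels throughout. On the control BAT arrays Lipe was 9.31 to 9.95 at 3 months, 6.56 to 7.03 at 7 months and 9.37 to 9.87 at 12 months. At 7 months it was 5.70, 5.40, 7.36 and 8.47 on the HSLAKO arrays and 9.07, 8.69, 4.49 and 4.61 on the DAKO arrays, so 4 of these 8 lay above every control array of their age. On DAKO BAT arrays at 14 months it was 9.36, 9.18, 9.44, 5.06 and 5.19, and at 12 months the HSLAKO and DAKO arrays ranged from 4.48 to 7.37. Pnpla2 at 3 months was not below all controls on ATGLAKO BAT replicates 1 and 2 and on DAKO BAT replicates 1 to 3, whose values of 13.85 to 14.04 exceeded the control range of 12.91 to 13.31. At 7 and 12 months Pnpla2 was 10.17 to 13.29 and 10.75 to 13.18 on ATGLAKO BAT arrays, and 9.37 to 13.50 and 10.30 to 12.60 in controls. In DAKO BAT it was 8.68 to 11.19 and 8.84 to 14.14 at these ages. On WAT arrays it was 9.04 to 13.46 in ATGLAKO, 10.15 to 14.00 in DAKO and 10.77 to 12.85 in controls. The position of its probe relative to the deleted part was not examined. Lipe on WAT arrays was 5.49 to 9.19 in HSLAKO, 4.65 to 8.93 in DAKO and 7.94 to 9.68 in controls. Median raw signals ran from 94.7 to 160.6 and 44.8% to 54.8% of probes were detected per array. This share differed between groups of BAT. At 3 months it was 45.2% to 46.8% in controls, 45.7% to 50.8% in ATGLAKO, 49.6% to 51.9% in HSLAKO and 47.7% to 51.0% in DAKO. Control arrays at 7 and 12 months had 50.7% to 54.8%. The part of this in the comparisons with control BAT at 3 months was not tested. In RNA of whole tissue, a change in the number of cells of a type and a change of expression per cell cannot be told apart.

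Control BAT at 3 months stood at the low end of the 17 groups for part of the set. It had the lowest group mean for 13 of the 32 members, more than any other group. The highest mean lay in control BAT at 12 months for 10 members, in control BAT at 7 months for 7 and in DAKO BAT at 7 months for 5. These counts were not taken over all genes, so they do not show a trait particular to the members. B2m, the invariant chain of class I molecules, went from 12.38 ± 0.32 (SD, n = 5) in control BAT at 3 months to 13.78 ± 0.08 (n = 4) at 7 months and 13.78 ± 0.10 (n = 4) at 12 months, while every knockout BAT group lay between 12.89 and 13.46. Its probe ranked between 14 and 291 of 25697 on an array, and quantile normalization bounds such bright values. Irf7, the factor that amplifies the type I response, ranged from 4.73 ± 0.36 (n = 4, 1 detected) in HSLAKO BAT at 7 months to 5.88 ± 0.36 (n = 4) in control BAT at 12 months. Tap1, a subunit of the peptide transporter, ranged from 5.56 ± 0.30 (ATGLAKO BAT, 3 months, n = 5) to 6.79 ± 0.80 (control BAT, 12 months, n = 4).

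**Figure D1:**
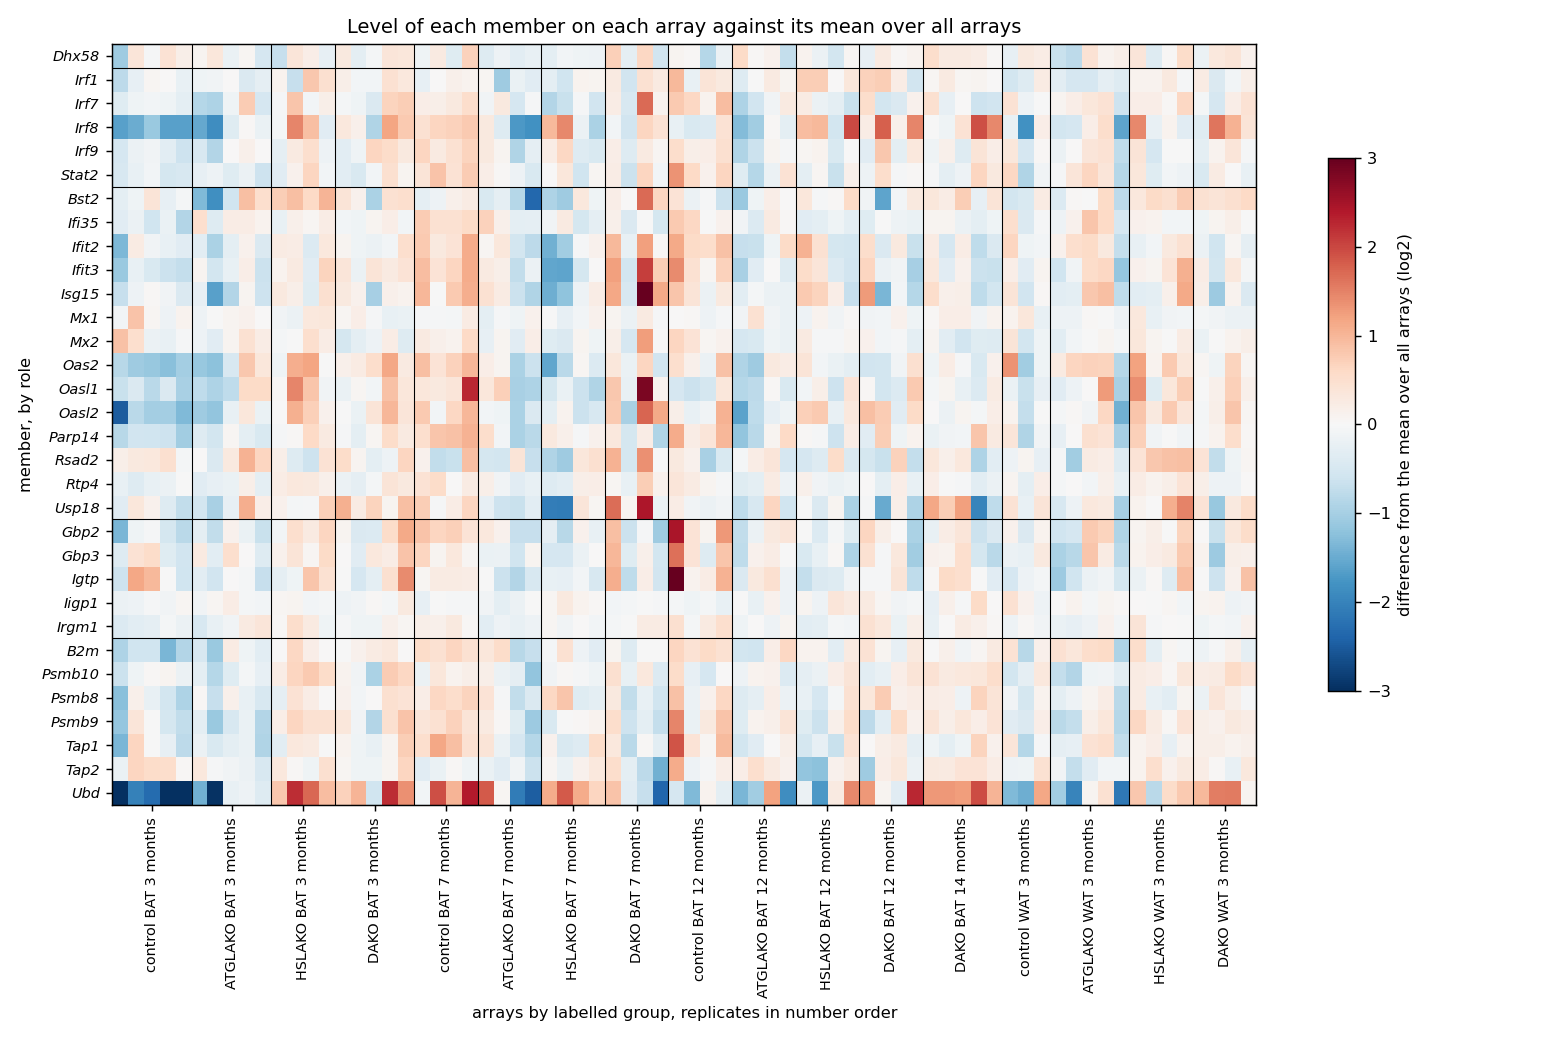
Each column is 1 of the 72 arrays, ordered by labelled group, and each line is 1 of the 32 tested members, ordered by role. Colour gives the log2 signal minus the member's mean over all arrays, with the scale ending at -3 and 3. Control BAT arrays at 3 months are low for Ubd, and DAKO BAT 7 months replicate 3 and control BAT 12 months replicate 1 stand out within their groups.

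In BAT at 3 months, a premalignant age in the study, 4 members rose in DAKO and none fell. They were Ubd (FAT10, a ubiquitin-like modifier), Oasl2 and Oas2 (of the 2'-5' oligoadenylate synthetase family) and B2m. Of all tested genes, 0.587% rose and 0.709% fell in this comparison, and 28 of the 32 members had a positive difference, with a median of 0.39 against -0.04 over all genes. Ubd was 4.65, 5.91, 5.64, 4.73 and 4.74 on the 5 control arrays, 2 of them detected, and 8.62, 8.96, 7.34, 10.16 and 9.31 on the 5 DAKO arrays. Every DAKO array lay above every control array, and the mean difference was 3.74 (SE 0.67, limma adjusted p = 5.04e-04). Its size rests on control values of which 3 of 5 were not above background, so no fold is given.

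Oasl2 was 4.91, 6.61, 6.39, 6.40 and 6.09 in controls and 7.40, 7.21, 7.79, 8.41 and 7.78 in DAKO, a difference of 1.64 (SE 0.36, limma adjusted p = 0.00434). Its second, dimmer probe differed by 0.50 (SE 0.18, limma adjusted p = 0.0732) and did not pass. Oas2, which makes the activator of RNase L, was 5.67, 5.43, 5.36, 5.24 and 5.49 in controls and 6.64, 6.75, 7.03, 7.66 and 6.78 in DAKO, a difference of 1.54 (SE 0.36, limma adjusted p = 0.00735). B2m was 12.33, 12.65, 12.66, 11.89 and 12.38 against 13.23, 13.38, 13.50, 13.57 and 13.26, a difference of 1.01 (SE 0.24, limma adjusted p = 0.00966), and its second probe gave 1.00 (limma adjusted p = 0.0091). For all of Oasl2, Oas2 and B2m the groups did not overlap. Groups were separate for 9 members, against 8.32% of all tested genes higher in that way. The 5 that did not pass the test were Irf8 (1.81, limma adjusted p = 0.0225), Parp14 (0.84, 0.0601), Ifit3 (0.88, 0.108), Ifi35 (0.43, 0.164) and Oasl1 (0.86, 0.199).

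Neither Isg15 nor Irf7 passed the test. Isg15, a ubiquitin-like modifier, was 6.41 ± 0.29 (SD, n = 5) in control and 6.62 ± 0.53 (n = 5) in DAKO BAT at 3 months, and Irf7 was 5.07 ± 0.13 and 5.42 ± 0.51. The DAKO mean of Isg15 holds replicate 3 at 5.68, with the other 4 arrays at 6.79 to 6.99. Psmb8, a catalytic subunit of the immunoproteasome, was 6.02 ± 0.56 and 6.76 ± 0.25 (limma adjusted p = 0.0516), and Tap1 was 5.60 ± 0.76 and 6.07 ± 0.38. By role, the median difference was 0.39 for the 5 transcription factors (0 rose), 0.41 for the 14 antiviral members (2 rose), 0.23 for the 5 GTPases (0 rose) and 0.55 for the 7 class I members (2 rose). In the wider pathway, 2 of 31 other interferon-stimulated genes rose, Oas1g by 2.45 (limma adjusted p = 0.00206) and Samd9l by 1.28 (limma adjusted p = 0.00414). None of 21 receptor and signalling genes, 12 class I heavy chain and loading genes (median 0.73) or 15 proteasome subunits (median -0.08) passed.

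**Figure D2:**
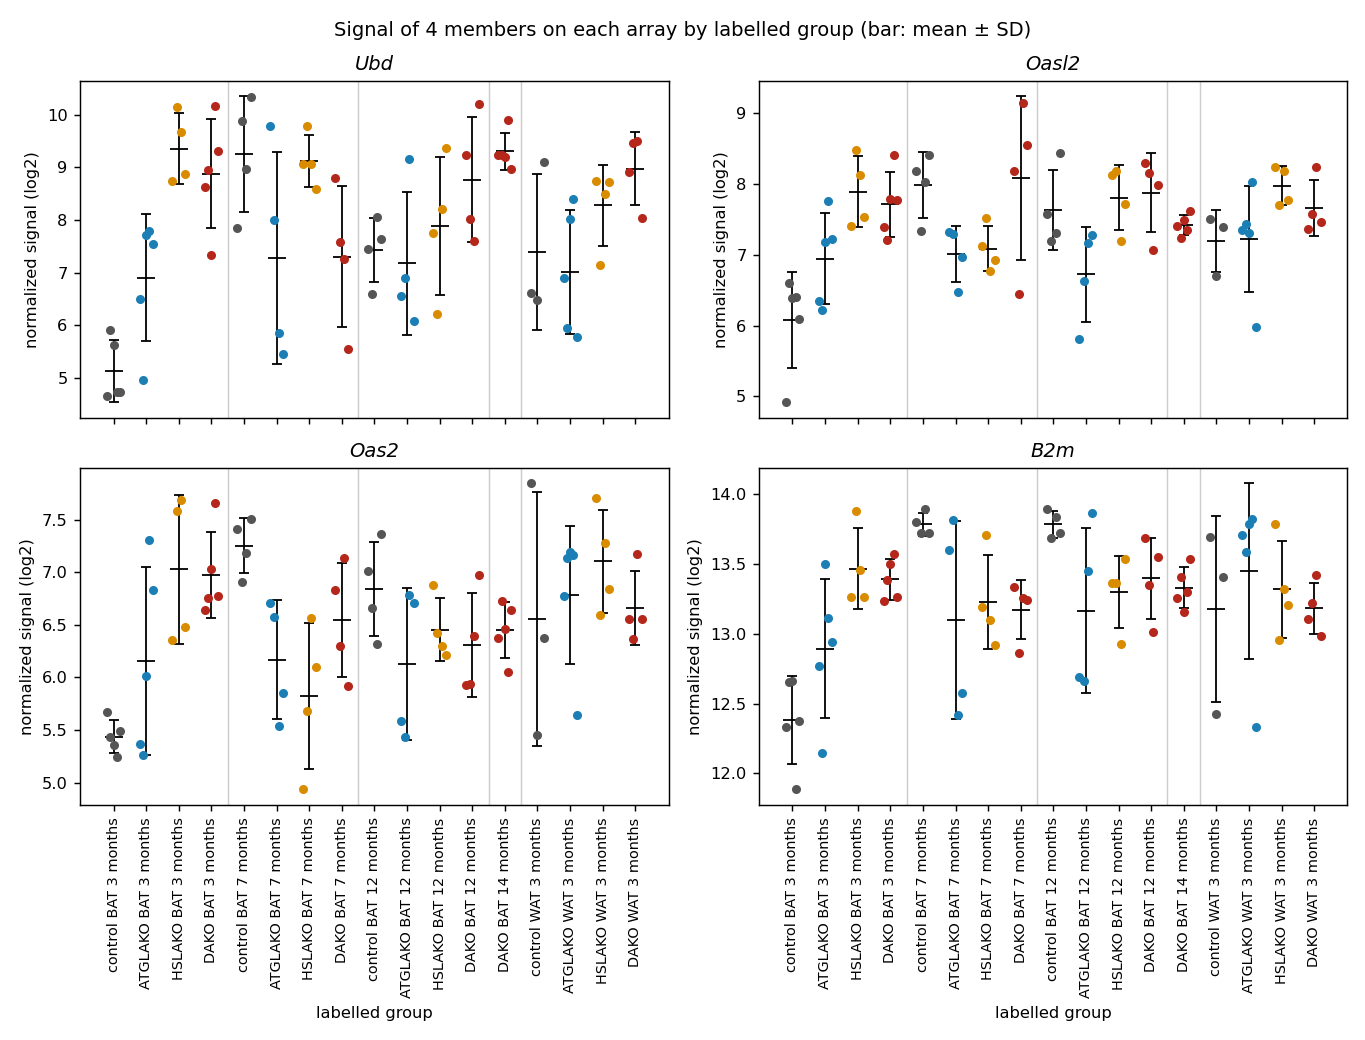
The log2 signal of Ubd, Oasl2, Oas2 and B2m is shown on each array of the BAT groups and WAT groups, 1 point per array, with bars for the group mean and its SD. At 3 months the DAKO and HSLAKO BAT points lie above all 5 control BAT points in each panel, while control BAT at 7 months lies within or above the range of the knockouts at 3 months.

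Markers of some other cells differed between these groups as well. The mean of the 6 macrophage markers tested (of 9 listed) was 6.01 to 6.33 on control arrays and 7.70 to 9.87 on DAKO arrays, and all 6 were higher, 2 of them past the threshold. Lyz2, the macrophage lysozyme, was 7.86 to 8.24 in controls and 11.10 to 13.56 in DAKO. The mean of the T cell markers was 5.02 to 5.67 and 5.42 to 7.17, and that of the brown adipocyte markers 11.00 to 11.20 and 9.49 to 10.93. No marker of these 2 lists passed the threshold. Other lists were mixed, with 2 of 4 NK and cytotoxic, 2 of 3 B cell and 1 of 3 dendritic markers higher, none past the threshold. The part of these cells in the rise of Ubd, Oasl2, Oas2 and B2m was not tested. Without the 3 DAKO arrays on which Pnpla2 was not below controls, 1 member rose, Ubd by 4.60 (limma adjusted p = 0.00567), and Oasl2 (2.01, 0.0243), Oas2 (1.78, 0.0493) and B2m (1.04, 0.0920) were as large but did not pass. Leaving out 1 array at a time gave 1 to 3 members. Only Ubd remained when control replicate 1 or 5, or DAKO replicate 3 or 4, was dropped. Dropping any of control replicates 2 to 4, or DAKO replicate 2 or 5, left 2 members, and dropping DAKO replicate 1 left 3.

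HSLAKO BAT at 3 months showed the same 4 members against the same control arrays, so these counts are not independent of those in DAKO. Ubd was 8.75, 10.14, 9.67 and 8.86 on the 4 HSLAKO arrays, a difference of 4.22 (SE 0.71, limma adjusted p = 1.48e-04) that rests on the same control values, 3 of 5 not above background. Oasl2 was 7.41, 8.48, 8.13 and 7.54, higher by 1.81 (SE 0.38, limma adjusted p = 0.00198), and Oas2 was 6.36, 7.58, 7.69 and 6.48, higher by 1.59 (SE 0.38, limma adjusted p = 0.00594). B2m was 13.26, 13.88, 13.46 and 13.26, higher by 1.08 (SE 0.26, limma adjusted p = 0.00591). All 16 of these values lay above every control array. Over all genes, 1.41% rose and 1.22% fell, and 27 of the 32 members were positive (median 0.45 against -0.03). Separate groups were found for 10 members, against 12.6% of all genes. Irf8, a factor of myeloid cells, was near background on control arrays (1 of 5 detected) and differed by 1.99 (limma adjusted p = 0.0116).

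Beyond the members, Samd9l (1.42, limma adjusted p = 0.00183), Oas1g (2.45, 0.00276) and Irf5, a factor downstream of Toll-like receptors (3.02, 0.00824), rose in HSLAKO. Macrophage markers were at 7.51 to 9.99 and T cell markers at 6.10 to 7.12 on the HSLAKO arrays, and brown adipocyte markers at 8.73 to 10.18, all outside the control ranges. Their part was not tested. The number of members that rose was 2 without control replicate 1, 4 or 5, and 1 without HSLAKO replicate 2 or 3.

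In ATGLAKO BAT at 3 months no member passed the test, against 0.253% of all genes, and the unadjusted p was under 0.05 for 5 members and 15.7% of genes. The 3 members with the smallest adjusted p were Ifi35 (0.57, SE 0.19, limma adjusted p = 0.117), Ubd (1.77, SE 0.67, 0.176) and Oasl2 (0.87, SE 0.36, 0.215). Ifi35, which dimerises in the cytosol on interferon treatment, was 7.54, 6.66, 7.27, 7.27 and 7.16, with replicate 2 within the control range of 6.16 to 6.87. Ubd was 6.50, 4.97, 7.72, 7.80 and 7.54 and Oasl2 was 6.35, 6.22, 7.19, 7.76 and 7.22. On ATGLAKO replicates 1 and 2, on which Pnpla2 was not below all controls, both genes were lower than on the other 3. Without those arrays the count was still 0, with Ubd at 2.55 (limma adjusted p = 0.0501). Macrophage markers ranged from 6.26 to 8.26 over the 5 arrays.

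The knockouts were also set against each other at 3 months. DAKO against HSLAKO gave 0 members (0% of all genes), with an unadjusted p under 0.05 for 0 members and 1.09% of genes. Ubd differed by -0.48 (SE 0.71). DAKO against ATGLAKO gave 0 members (0.00815% of all genes), with 7 members and 5.83% of all genes under that unadjusted p. Ubd differed by 1.97 (SE 0.67, limma adjusted p = 0.551). The departure of DAKO from the sum of both single effects gave 0 members (0.00815% of all genes, with 4 members and 6.61% of genes unadjusted) and Ubd at -2.25 (limma adjusted p = 0.71). None of this shows that the genotypes were alike, given these standard errors.

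At 7 and 12 months most members were lower in knockout than in control BAT, though few passed. In HSLAKO at 7 months Ifit3, an antiviral effector of the tetratricopeptide family, fell: it was 9.12, 8.60, 8.83 and 9.30 on control arrays and 6.64, 6.61, 7.66 and 8.20 on HSLAKO arrays. The groups did not overlap, and the difference was -1.69 (SE 0.38, limma adjusted p = 0.00445). Its 2 other probes gave -0.82 (limma adjusted p = 0.133) and -0.92 (limma adjusted p = 0.108). This was 1 of 32 members, with 1.35% of all genes lower, and 30 members were negative. Oas2 (-1.43, limma adjusted p = 0.0207), Ifit2 (-1.25, 0.0219) and Ifi35 (-0.72, 0.0274) followed without passing. Ifit3 no longer passed without control replicate 1, 3 or 4 or HSLAKO replicate 1 or 2 (0 members), nor in a fit of these groups alone (limma adjusted p = 0.0550). Without HSLAKO replicate 4, on which Lipe was 8.47, it differed by -2.00 (limma adjusted p = 0.00263). Among proteasome genes, the activator subunits Psme1 (-1.37) and Psme3 (-1.53) fell. The 9 mesothelial markers were all negative (median -2.49), 4 of them past the threshold. The 7 brown adipocyte markers were all positive (median 1.61) and the 5 general adipocyte markers all negative (-0.60), none past the threshold. The part of these markers was not tested.

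In HSLAKO at 12 months Igtp, a GTPase that acts at the vacuoles of intracellular parasites, fell. It was 11.05, 7.91, 8.04 and 8.86 on control arrays and 7.11, 7.38, 7.43 and 7.72 on HSLAKO arrays, a difference of -1.56 (SE 0.42, limma adjusted p = 0.00677). The single control value of 11.05 carried much of it: without control replicate 1 the difference was -0.86 (limma adjusted p = 0.148). It also missed the threshold without control replicate 4 or HSLAKO replicate 1, 2 or 3 and in a fit of these groups alone (limma adjusted p = 0.184). Other members passed in some of these fits: Irgm1 without control replicate 2 (2 members in all) or HSLAKO replicate 3, Gbp2 and Tap1 without control replicate 3 (3 members) and Tap1 and Tap2 without HSLAKO replicate 4 (3 members). Of all genes 6.35% were lower, above the 1 of 32 members. Irgm1 (-0.48, limma adjusted p = 0.0102), Tap1 (-1.08, 0.0139) and Gbp2 (-1.26, 0.0189) lay just outside the threshold, and the median of the 5 GTPases was -1.02. The general adipocyte markers differed by a median of -3.75, all 5 negative and 4 of them past the threshold, with a mean level of 5.75 to 10.72 on HSLAKO arrays and 10.86 to 11.23 on controls. Their part in these differences was not tested. In the wider lists Nlrc5, the transactivator of class I genes (-1.57), the heavy chain H2-K1 (-1.03), Irgm2 (-1.51), Lgals3bp (-1.58) and Cxcl9 (-1.62) fell, while Trim30a (1.89) and the constitutive proteasome subunits Psmb6 (0.64) and Psmb2 (0.64) rose.

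In DAKO at 7 months 0 members passed, against 1.75% of all genes, and an unadjusted p under 0.05 was found for 9 members and 23.1% of genes. The smallest adjusted p belonged to Ifi35 (-0.77, SE 0.21, limma adjusted p = 0.0195), Parp14 (-1.04, SE 0.31, 0.0326) and Psmb8 (-0.81, SE 0.27, 0.0515). Ifi35 was 7.81, 7.51, 7.50 and 7.63 in controls and 7.19, 6.61, 7.04 and 6.52 in DAKO. Parp14, a mono-ADP-ribosyltransferase, was 9.24, 9.58, 9.63 and 9.80 against 9.08, 8.22, 8.97 and 7.85. For both genes the groups were separate. Psmb8 was 6.78, 7.19, 7.10 and 7.23 against 6.87, 5.84, 6.36 and 5.98, with DAKO replicate 1 within the control range. Of the 32 members, 21 were negative. All 7 class I members were (median -0.75), as were 4 of 5 GTPases (median -0.20) and 3 of 5 transcription factors (median -0.47), while 8 of 14 antiviral members were positive (median 0.03). The 5 general adipocyte markers were all negative too (median -1.85) and the 7 brown adipocyte markers all positive (1.75), none past the threshold. The 9 mesothelial markers were all negative (median -2.25), 3 of them past the threshold. The part of these markers was not tested. Without replicates 1 and 2, on which Lipe was high, the count was still 0 and 18 members were negative. Without DAKO replicate 1, Ifi35 passed (-0.89, limma adjusted p = 0.00830).

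In DAKO at 12 months 0 members passed, against 7.97% of all genes, and again 9 were under an unadjusted p of 0.05, with 31.0% of all genes. General adipocyte markers were lower by a median of -2.65 (5 of 5 negative, 1 past the threshold), whose part was not tested. Igtp (-1.26, SE 0.42, limma adjusted p = 0.0325), Gbp2 (-1.08, SE 0.39, 0.0520) and Ifi35 (-0.57, SE 0.21, 0.0589) came first. Igtp was 7.78, 7.78, 8.20 and 7.06 on DAKO arrays, and Gbp2, a guanylate-binding protein, was 12.11, 10.07, 9.74 and 10.97 in controls against 10.32, 9.85, 9.68 and 8.73 in DAKO. Ifi35 was 7.84, 7.67, 7.04 and 7.17 in controls and 6.69, 7.04, 6.89 and 6.84 in DAKO. In each of these the groups overlapped. Igtp alone passed, by -1.61 (limma adjusted p = 0.00894), without control replicate 2. The related GTPase gene Irgm2 (-1.51) and Psme1 (-1.08) fell. In ATGLAKO 0 members passed at 7 months (0% of all genes), although all 32 were negative and 19 had an unadjusted p under 0.05 (11.4% of all genes). At 12 months 0 passed (0.636% of all genes), with 28 negative and 15 unadjusted (21.7% of all genes).

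**Figure D3:**
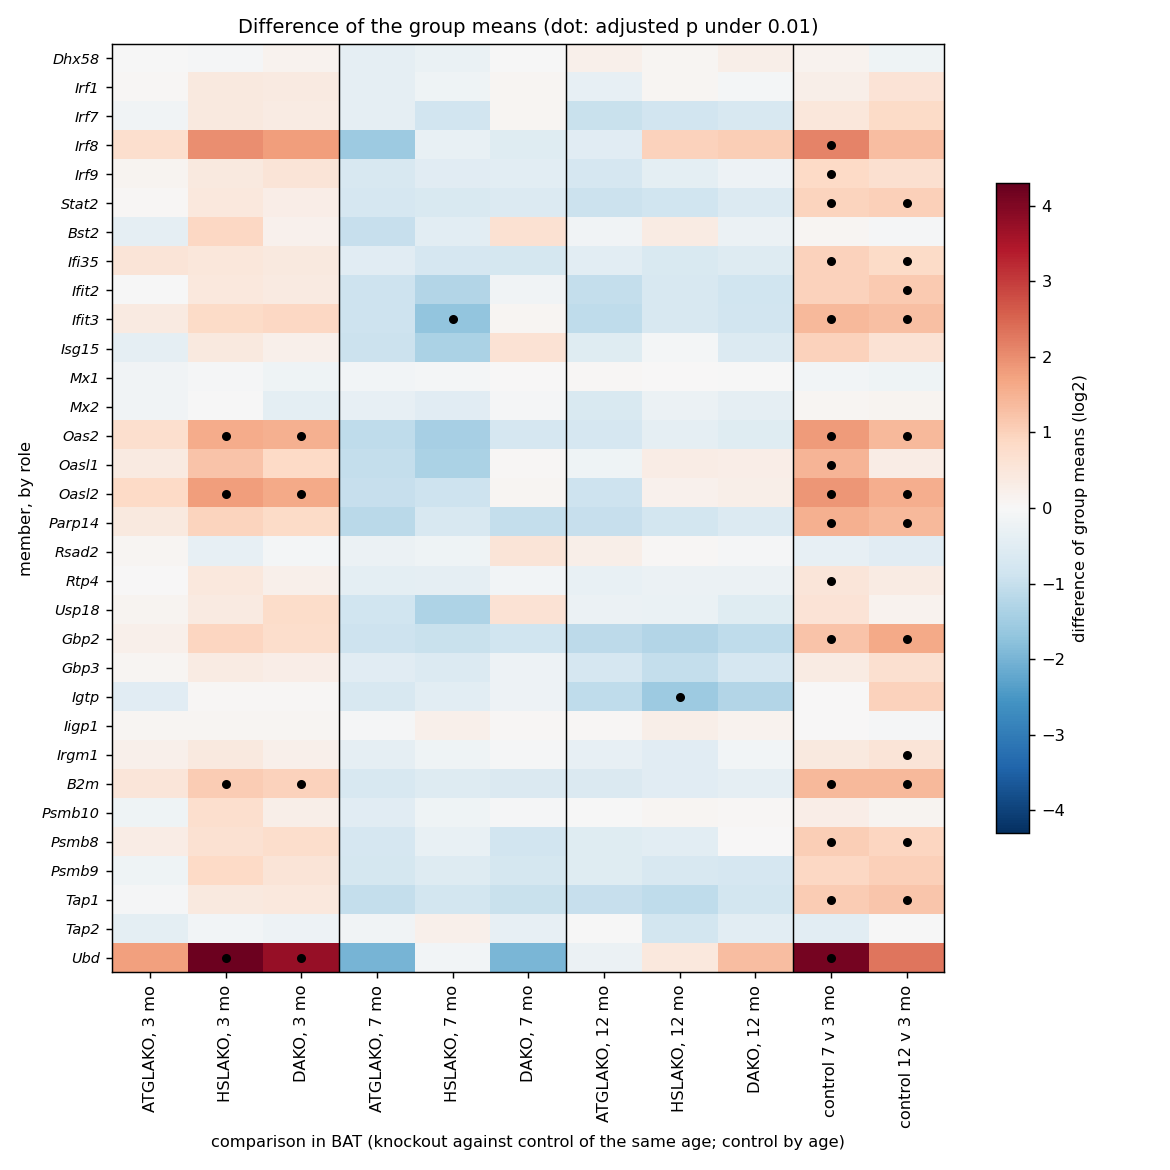
Log2 differences of the 32 tested members, by role, for each knockout against control BAT at 3, 7 and 12 months and for control BAT at 7 and 12 months against 3 months. Colour gives the sign and size of the difference and a dot marks a limma adjusted p under 0.01. The knockout columns are mostly positive at 3 months in DAKO and HSLAKO and mostly negative at 7 and 12 months, and the control ages hold 15 and 12 dots.

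The knockout effect itself was compared between ages. All these differences used the same control arrays at 3 months, and the genotypes shared the control arrays of each later age. Their counts are therefore not independent. In controls alone, from 3 to 7 months, Ubd rose by 4.12, B2m by 1.40, Parp14 by 1.54, Oas2 by 1.82, Ifi35 by 1.00 and Psmb8 by 1.06. The DAKO effect was lower at 7 than at 3 months for 6 members, against 1.11% of all genes. These were Ubd (-5.70, SE 1.01, limma adjusted p = 7.48e-04), Parp14 (-1.88), B2m (-1.62), Psmb8 (-1.56), Ifi35 (-1.20) and Oas2 (-2.24). The HSLAKO effect was lower at 7 than at 3 months for 9 members, against 3% of all genes. Oas2 (-3.02, limma adjusted p = 2.73e-04), Oasl2 (-2.71), Ifit3 (-2.50), B2m (-1.64), Ubd (-4.35), Ifi35 (-1.21) and Parp14 (-1.62) were 7 of them. The others, Oasl1 (-2.59) and Rtp4 (-0.84), were not above background on any control array at 3 months, so their sizes rest on a floor. Ubd was not above background on most of those control arrays, so its sizes rest in part on a floor too. The HSLAKO effect at 12 months was lower than at 3 months for 4 members (1.43% of all genes): Irgm1 (-0.90), B2m (-1.57), Gbp2 (-2.18) and Parp14 (-1.72). The DAKO effect at 12 months gave 0 (1.37% of all genes, with 18 members and 22.2% of genes unadjusted), with Oas2 at -2.07 (limma adjusted p = 0.0150). For ATGLAKO the count was 0 at 7 months (0.00815% of all genes, with 15 members and 14.7% of genes unadjusted) and 0 at 12 months (0.114%, with 14 members and 24.3% of genes unadjusted).

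These counts depended on single arrays. For DAKO at 7 months it was 3 without control 3 months replicate 1 or 4 or control 7 months replicate 4. It was 2 without control 3 months replicate 5 or DAKO 7 months replicate 2 or 4, and 1 without control 7 months replicate 2 or 3 or DAKO 3 months replicate 4. For HSLAKO at 7 months it was 5 without control 7 months replicate 4, 4 without HSLAKO 7 months replicate 4 and 3 without HSLAKO 3 months replicate 2. For HSLAKO at 12 months it was 0 without HSLAKO 3 months replicate 2, 2 without HSLAKO 3 months replicate 1, and 1 without control 3 months replicate 1, 4 or 5, control 12 months replicate 1 or 4, HSLAKO 3 months replicate 3 or 4 or HSLAKO 12 months replicate 1, 2 or 3. Without the arrays older than 3 months on which Lipe was above 8, 5 members remained for DAKO at 7 months (Oas2 was lost, at an adjusted p of 0.0104) and 4 for HSLAKO at 7 months (Ifit3, Oasl2, Oas2 and Rtp4). In the wider lists the effect was lower for Samd9l by -1.87 (DAKO, 7 months) and -2.12 (HSLAKO, 7 months), for Lgals3bp by -2.28 and -2.67, and for Nlrc5 by -2.52 in HSLAKO at 12 months. Zbp1, a sensor of nucleic acid in the Z form, went the other way, by 1.27 in DAKO (limma adjusted p = 0.00409) and 1.08 in HSLAKO at 7 months (limma adjusted p = 0.00844). These differences include the change in the controls themselves. From 3 to 7 months control BAT changed by -1.02 for Zbp1, 1.80 for Samd9l and 2.01 for Lgals3bp. From 3 to 12 months it changed by 2.17 for Nlrc5. Of 31 other interferon-stimulated genes, 1 was higher and 2 were lower in the DAKO difference at 7 months, and 1 was higher and 5 were lower in that of HSLAKO.

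The control arrays themselves differed between ages. Set against the 5 control BAT arrays at 3 months, the 4 at 7 months were higher for 15 members, with 10.8% of all genes higher. These 2 comparisons of control ages were added after the values had been seen. Ubd was 7.86, 9.87, 8.96 and 10.33 at 7 months, higher by 4.12 (SE 0.71, limma adjusted p = 3.59e-05). B2m (1.40), Parp14 (1.54), Oasl2 (1.91), Ifi35 (1.00), Oas2 (1.82), Psmb8 (1.06) and Irf8 (2.14) followed by adjusted p. Irf8 was 4.59, 4.73, 5.10, 4.59 and 4.58 at 3 months and 6.67, 6.86, 6.90 and 7.01 at 7 months. Most control arrays at 3 months were not above background for Ubd or Irf8, so both differences rest in part on a floor. Ifit3, Tap1, Stat2, Oasl1, Rtp4, Irf9 and Gbp2 completed the 15. Against the floor at 3 months Oasl1 was at least 2.29-fold higher (group means 4.62 and 6.10) and Rtp4 at least 1.05-fold higher (4.47 and 4.98), a floor being the lowest signal of a probe above background. Among genes of the other lists, Samd9l (1.80), Oas1g (2.83), Lgals3bp (2.01), Irf5 (3.68), Tyk2 (1.45), H2-T10 (1.81) and Nlrc5 (1.49) were also higher at 7 months. Zbp1 (-1.02) was lower. Groups were separate for 18 members, against 20.3% of all genes.

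At 12 months 12 members were higher than at 3 months, with 8.82% of all genes higher. The 8 with the smallest adjusted p were B2m (1.40, limma adjusted p = 7.95e-05), Parp14 (1.40), Gbp2 (1.63), Irgm1 (0.54), Oasl2 (1.55), Ifi35 (0.82), Tap1 (1.18) and Stat2 (1.04), and Oas2, Psmb8, Ifit3 and Ifit2 made up the rest. Ubd was 7.44, 6.61, 8.05 and 7.65, higher by 2.30 without passing (limma adjusted p = 0.0117). Nlrc5 (2.17), Samd9l (1.63), Lgals3bp (1.86), Tyk2 (1.12) and Psme1 (0.75), of the other lists, were also higher at 12 months, and Zbp1 (-1.07) was lower. Groups were separate for 14 members, against 19.9% of all genes. The counts were 9 at 7 months without control 3 months replicate 1 or control 7 months replicate 4, and at 12 months 7 without control 3 months replicate 1 or 5, 5 without control 12 months replicate 4 and 3 without control 12 months replicate 1.

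All 8 of these older control arrays were among those with mesothelial signal, at 6.21 to 7.59 (7 months) and 6.29 to 7.97 (12 months) against 4.37 to 5.05 at 3 months. Their brown adipocyte markers were at 5.50 to 7.59 and 5.59 to 6.33 against 11.00 to 11.20, and their macrophage markers at 8.57 to 9.87 and 7.41 to 8.90 against 6.01 to 6.33. Age and tissue content cannot be told apart on these arrays, and the same holds for every comparison at 7 and 12 months that used them as controls. Within knockout genotypes no member passed the test between ages. At most 0.00815% of all genes passed in these comparisons, so the counts of 0 say little of the members. DAKO BAT at 7 against 3 months gave 0 (0.00815% of all genes, with 4 members and 1596 of the 12265 genes unadjusted) and at 12 against 3 months 0 (0%, with 1 and 16.7%). HSLAKO BAT gave 0 at 7 months (0%, with 9 and 9.43% unadjusted) and 0 at 12 months (0%, with 3 and 13.1%). ATGLAKO BAT gave 0 at both (0%), with 0 and 1 members unadjusted against 9.79% and 6.69% of genes.

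In DAKO BAT at 14 months no member passed against 12 months (0% of all genes, with 0 members and 5.06% of genes at an unadjusted p under 0.05), and the smallest adjusted p, 0.834 by limma, belonged to Psmb10 (0.38), Tap2 (0.50) and Bst2 (0.65). Psmb10 is the third inducible proteasome subunit and Bst2 is tetherin, which holds virions at the cell surface. Ubd was 9.24, 9.24, 9.19, 9.90 and 8.97 at 14 months, with 9.24, 8.02, 7.59 and 10.21 at 12 months, and its mean at 14 months was 9.31 ± 0.35 (SD, n = 5). The tissue markers of these groups differed, none of them past the threshold: brown adipocyte markers by a median of 2.74 (7 of 7 higher) and general adipocyte markers by 1.53 (5 of 5 higher). Replicates 1 to 3 at 14 months, on which Lipe was high, had Ucp1 at 13.47 to 13.56, and replicates 4 and 5 at 6.21 and 6.82. The part of the markers was not tested. Without replicates 1 to 3 the count was again 0, with 16 members positive and 16 negative. Against DAKO BAT at 3 months 0 members passed (0%, with 0 members and 3.11% of genes unadjusted) and against 7 months 0 (0.00815%, with 8 and 9.96%). Against control BAT at 12 months 0 passed (6.87% of all genes, with 11 members and 27.4% of genes unadjusted), with Gbp2 at -1.20 (limma adjusted p = 0.0242).

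In WAT at 3 months no member passed in DAKO, HSLAKO or ATGLAKO (0% of all genes in each), and 1, 1 and 0 members had an unadjusted p under 0.05, against 5.77%, 2.84% and 3.38% of all genes. Ubd was 7.40 ± 1.48 (SD, n = 3) in control WAT and 8.98 ± 0.69 (n = 4) in DAKO WAT, a difference of 1.58 (limma adjusted p = 0.805). Irf8 (1.28) and Psmb10 (0.53) came next, at the same adjusted p. BAT against WAT gave 0 members in controls (0.0489% of all genes), ATGLAKO (0.538%), HSLAKO (0%) and DAKO (0%), with 5, 1, 1 and 0 members unadjusted against 13.4%, 22.9%, 1.34% and 0.970% of genes. The difference of the knockout effect between BAT and WAT gave 0 for each genotype (0% of all genes), with 4 members unadjusted in DAKO, 3 in HSLAKO and 1 in ATGLAKO, against 4.93%, 10.2% and 7.46% of genes. The Ucp1, Pnpla2 and Lipe ranges on arrays labelled WAT bear on all of these.

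At 7 months the antiviral effectors were spread within DAKO BAT. Isg15 was 7.85, 6.21, 10.19 and 7.82 on its 4 arrays, and no other of the 72 arrays reached 10.19. That array, replicate 3, held the overall maximum of 11 of the 32 members. It exceeded the mean of the other 3 arrays by a median of 1.29 over the 14 antiviral members, 8 of them by more than 1, and by 0.72 over the transcription factors. Oasl1, a negative regulator of Irf7 translation in mouse, was 8.11 against 5.51, Usp18, which removes ISG15 from proteins, 9.68 against 7.79, and Irf7 6.96 against 5.21. For the 5 GTPases the median was 0.19 and for class I processing 0.11. Brown adipocyte markers were at 5.07 and 5.01 on replicates 3 and 4 and at 11.18 and 10.83 on replicates 1 and 2. Macrophage markers were at 9.04 on replicate 3 and 8.89 on replicate 4. The part of these cells in the level of the antiviral members was not tested.

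Replicate 1 of control BAT at 12 months held the maximum of 10 members and tied for that of 1 more, and they were of another kind. The 5 GTPases exceeded the mean of the other 3 arrays by a median of 1.36 and class I processing by 0.80, while the antiviral members did so by 0.45. Gbp2 was 12.11 against 10.26, Igtp 11.05 against 8.27, Tap1 7.86 against 6.43 and Psmb9 9.88 against 8.72. Its macrophage markers, at 7.76, were within the 7.41 to 8.90 of its group, and its T cell markers, at 6.52, were the highest of the 4. DAKO BAT 7 months replicate 1 was the next such array, with the GTPases above the mean of the other 3 by a median of 1.26, class I processing by 0.81 and the antiviral members by 0.26. All 3 are single samples, described here without a test.

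**Figure D4:**
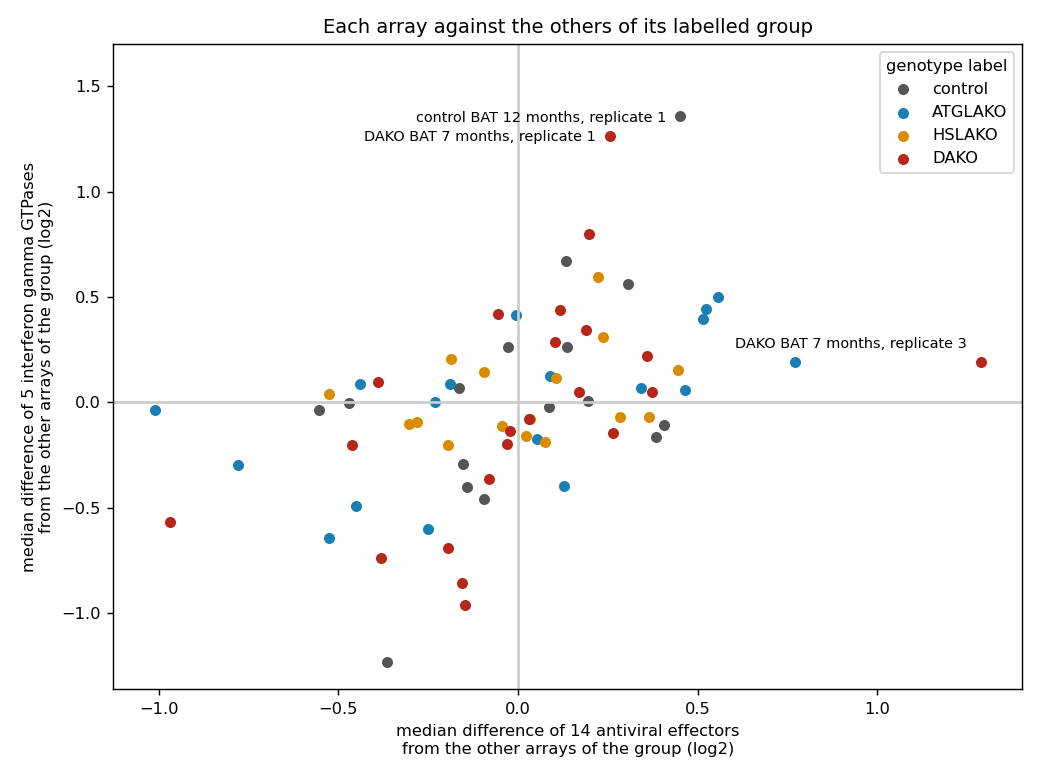
For each of the 72 arrays, the median difference from the other arrays of its group over the 14 antiviral members (horizontal, log2) is set against that over the 5 GTPases induced by interferon gamma (vertical, log2). DAKO BAT 7 months replicate 3 lies far to the right at 1.29 and 0.19, control BAT 12 months replicate 1 lies high at 0.45 and 1.36, and DAKO BAT 7 months replicate 1 lies high at 0.26 and 1.26.

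The 7-month comparisons of DAKO with the single knockouts drew on these arrays. DAKO exceeded HSLAKO by 1.79 for Ifit3 (limma adjusted p = 0.0217) and 1.98 for Isg15 (limma adjusted p = 0.0413), and 0 members passed (0.00815% of all genes, with 10 members and 1960 of the 12265 genes unadjusted). Against ATGLAKO 0 passed (0%, with 9 and 16.5% unadjusted). The departure of DAKO from the sum of the single effects was 2.68 for Ifit3 (limma adjusted p = 0.0541) and 2.91 for Isg15 (limma adjusted p = 0.0990), with 0 members past the threshold (0%, with 12 and 16.3% unadjusted). At 12 months DAKO against ATGLAKO, DAKO against HSLAKO and the departure from the sum each gave 0 members and 0% of all genes, with 3, 1 and 10 members unadjusted against 27.5%, 3.77% and 12.2% of genes.

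After each group's mean was removed, some members varied together over the 72 arrays. This is given as a description because arrays of a group share tissue make-up and normalization. The single arrays described above were included. The highest correlations were Gbp2 with Gbp3 (0.85), Isg15 with Ifit3 (0.84), Ifit2 with Ifit3 (0.82), Gbp2 with Igtp (0.80), Stat2 with Parp14 (0.79) and Psmb9 with Psmb10 (0.79). Ifit3 also correlated with Gbp3 (0.70) and Gbp2 (0.68). Gbp2, Gbp3 and Igtp all had an ISRE core in the windows shown or counted above, and so did Isg15 and Ifit3, whereas Ifit2, Psmb9 and Psmb10 had none. Irgm1 held 2 cores, and its correlation was 0.20 with Gbp2 and 0.01 with Gbp3. A link between motif and correlation was not tested.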

How the data were processed

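RNA of brown or white adipose tissue was hybridised by the authors to Illumina MouseRef-8 v2.0 arrays (biotinylated cRNA, MessageAmp kit), and signals were exported from BeadStudio. The authors deposited a table of bead intensity per probe, not normalized, with a detection p-value per probe and array, and a second table of normalized intensity values (142.6 to 19393), which had a rank correlation of 1 with the raw values of the same array and was used as an alternative. Here neqc (limma 3.58.1 under R 4.3.3, with statmod 1.5.0) corrected the background of the 72 raw arrays, using detection p-values in place of control probes, and then matched their quantiles. Of 25697 probes, 18083 were detected (p under 0.05) on 3 arrays or more. Gene names came from the platform annotation, with 23978 probes of 1 symbol, 0 of several and 1719 of none. One limma fit held all 17 groups (55 residual degrees of freedom, 46 comparisons), with p-values adjusted by Benjamini-Hochberg across every tested probe and a threshold of 0.01. The fit was also run on simulated arrays with known shifts and independent normal noise. Those lack the mixed groups of the real arrays, so no conclusion on the calls above is drawn from that run. Groups came from the labels, and nothing says how the arrays were split into batches.

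The members and lists were chosen with earlier results of these data known. Named members are those past the threshold in a comparison, at most 8 by adjusted p. Where none passed, the 3 with the smallest adjusted p are named. From each other list some genes past the threshold are named, in most comparisons at most 3. Irf7, Isg15, Psmb8, Tap1, B2m and Ubd are given at least by group mean and SD. Alternatives were the deposited normalized values, other background corrections, scaling, filters, call rules, probes, samples in the fit, variance models, array weights, the replicate number as a block and each array left out. Leaving out arrays by Pnpla2, Lipe or mesothelial signal was chosen after seeing the data. Array number limits the precision. Promoters are from RefSeq (GRCm38.p6).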

Additional observations from a re-analysis of the deposited data

Results flagged for a closer look

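Single arrays stood apart from their group for 4 of 160 combinations of 10 members and 16 groups of 4 or 5 arrays, where chance gives about 1 in 20. Isg15 on DAKO BAT 3 months replicate 3 was 5.68, with the other 4 arrays at 6.79 to 6.99. On ATGLAKO WAT 3 months replicate 5, B2m was 12.33 (others 13.58 to 13.82) and Oas2 was 5.65 (others 6.78 to 7.20). Ubd on HSLAKO WAT 3 months replicate 2 was 7.14 (others 8.50 to 8.75). All are log2 signals, and all lay on the low side.

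The knockout effect in BAT differed between ages by a test of the difference itself (limma, adjusted over all tested probes) for 19 combinations, each with a lower effect at the later age. For DAKO at 7 against 3 months these were Ubd (-5.70, adjusted p = 7.48e-04), Oas2 (-2.24, 0.00768), Ifi35 (-1.20, 0.00760), Psmb8 (-1.56, 0.00635), B2m (-1.62, 0.00535) and Parp14 (-1.88, 0.00492). For HSLAKO at 7 against 3 months they were Ubd (-4.35, adjusted p = 0.00379), Ifit3 (-2.50, 0.00118), Oasl1 (-2.59, 0.00438), Oasl2 (-2.71, 7.97e-04), Oas2 (-3.02, 2.73e-04), Ifi35 (-1.21, 0.00432), B2m (-1.64, 0.00278), Rtp4 (-0.84, 0.00764) and Parp14 (-1.62, 0.00867). For HSLAKO at 12 against 3 months they were Gbp2 (-2.18, adjusted p = 0.00927), Irgm1 (-0.90, 0.00216), B2m (-1.57, 0.00701) and Parp14 (-1.72, 0.00965). DAKO and HSLAKO were set against the same control arrays, so these combinations are not independent. The control arrays in these differences are the ones whose mesothelial and brown adipocyte markers changed between ages, and genotype by age and tissue content cannot be told apart here.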

How the results depend on the processing

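No result changed direction. The count of members past the threshold moved as follows, with the cause not tested. In DAKO against control BAT at 3 months (4) it was 2 with the deposited normalized values, 1 without background correction, 2 with an offset of 50, 1 with median scaling, 2 without a filter, 7 in a fit of the compared groups alone, 7 with array weights and 1 on the arrays with the targeted transcripts below every control. In HSLAKO at 3 months (4) it was 7 with the compared groups alone, 7 with array weights and 9 at an adjusted p under 0.05. In DAKO at 7 months (0) it was 4 with median scaling and 2 at 0.05, and at 12 months (0) 6 with median scaling, 6 with array weights and 1 at 0.05. In HSLAKO at 7 months (1) it was 25 with median scaling, 0 with the compared groups alone, 2 with array weights and 4 at 0.05. In HSLAKO at 12 months (1) it was 3 with the deposited values, 3 without background correction, 3 with the offset, 9 with median scaling (1 higher, 8 lower), 0 with the compared groups alone, 9 with array weights, 8 at 0.05 and 2 by any probe. For DAKO at 14 against 12 months (0) it was 1 with array weights.

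For the effect at 7 minus that at 3 months it was 10 at 0.05 in DAKO (6), and in HSLAKO (9) 28 with median scaling, 16 at 0.05 and 4 without the array on which Lipe was above 8. For HSLAKO at 12 minus 3 months (4) it was 16 with median scaling, 2 without a filter, 12 with array weights and 13 at 0.05. For control BAT at 7 against 3 months (15) it was 25 with median scaling and 5 with a minimum log2 change of 1.5, and at 12 months (12) 21 with median scaling, 20 with array weights and 2 with that minimum. Of the 12265 tested genes, median scaling put 21, 982 and 2153 past the threshold, in either direction, for DAKO at 3, 7 and 12 months. It put 3585 and 1791 there for HSLAKO at 7 and 12 months. For HSLAKO at 7 and 12 minus 3 months these were 4304 and 926, and for control at 7 and 12 months 5290 and 4827. No share over all genes is given for the other settings, so those counts show no trait particular to the members. Median scaling moved the median of all genes to 0.11 (HSLAKO, 3 months), -0.24 (DAKO, 7 and 12 months), -0.57 (HSLAKO, 7 months), -0.71 (HSLAKO, 7 minus 3 months) and 0.39 (control at 7 and 12 against 3 months). Relative to that median, the members' median in the HSLAKO effect at 7 minus 3 months was -1.72 (-1.25 in the main setting) and in control at 7 months 1.33 (0.89). With each array left out in turn the counts ran from 1 to 3 (DAKO, 3 months), 1 to 4 (HSLAKO, 3 months), 0 to 0 (ATGLAKO, 3 months), 0 to 1 (DAKO at 7 and at 12 months, HSLAKO at 7 months), 0 to 3 (HSLAKO, 12 months), 1 to 6 (DAKO, 7 minus 3 months), 3 to 8 (HSLAKO, 7 minus 3), 0 to 5 (HSLAKO, 12 minus 3), 9 to 14 and 3 to 13 (control at 7 and 12 months), and were 0 in DAKO WAT and at 14 against 12 months.

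The replicate numbers were taken only as names of samples. Correlations of same-numbered arrays ran from -0.54 to 0.81, with 0 of 5 pairs over 0.1 for DAKO against control at 3 months and 2 of 4 at 7 months. At 3 months 0 of 10 arrays correlated best with their own number. It was 3 of 8 at 7 months and 3 of 8 for DAKO at 14 against 12 months. So few pairs cannot show that the numbers carry no structure. With the replicate number as a block the count was 1 for HSLAKO at 12 minus 3 months and 2 for HSLAKO at 12 months, and 3, 3, 6, 8, 14 and 10 for DAKO at 3 months, HSLAKO at 3 months, DAKO and HSLAKO at 7 minus 3 months and control at 7 and 12 months. With the mouse number as a random block (13 mice shared, consensus correlation 0.021), BAT against WAT gave 0. Signals near background limit Mx1, Iigp1, Rtp4 and, in control BAT at 3 months, Ubd, Irf8 and Oasl1.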
